A study of Mus musculus with 6 samples.

Results

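The 10 genes described here encode the enzymes that make the building blocks of hyaluronan, polymerise it and cut it. They are *Gfpt1*, *Gfpt2*, *Gnpnat1*, *Pgm3* and *Uap1* of the hexosamine pathway, *Ugdh*, the hyaluronan synthases *Has1*, *Has2* and *Has3*, and the hyaluronidase *Hyal2*. They were chosen by name for their place in the pathway, with earlier results of these data known, and all 10 were found in the table of 38553 genes. RNA-Seq had been performed on poly(A)+ RNA of microdissected craniofacial tissue at E12.5, before the palatal shelves rise. The 3 controls were *Rbfox2* flox/flox embryos without Cre, and the 3 mutants carried the same floxed alleles and *Pax3*Cre/+ (Pax3Cre/+:Rbfox2 flox/flox), so that only the mutants held the *Pax3*Cre knock-in allele. Pax3Cre acts in neural crest and also in paraxial mesoderm and somite derivatives, and the dissected tissue holds other cells in which *Rbfox2* was not deleted. The mice were of mixed genetic background. The authors deposited 1 FPKM value per gene and sample, the fragments mapped to a gene scaled by its length and by all mapped fragments.

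Hyaluronan is a long, unsulphated polysaccharide of the extracellular matrix that binds water and swells the tissue. It is assembled at the plasma membrane from UDP-N-acetylglucosamine and UDP-glucuronate. The first of these sugars comes from the hexosamine pathway and also feeds N-glycans, other glycosaminoglycans and the O-GlcNAc modification of nuclear and cytosolic proteins. The palatal shelves are rich in hyaluronan while they grow and rise. Rbfox2, the splicing factor deleted in the mutants, binds UGCAUG in RNA.

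*Uap1* (ENSMUSG00000026670) encodes the pyrophosphorylase that makes UDP-N-acetylglucosamine, the last step of the hexosamine pathway. It lies on the minus strand at chr1:170141938-170174957 of GRCm38. The study reported that its splicing changed in the mutants, in RNA-Seq and by RT-PCR. GENCODE M21 gives it 3 protein-coding transcripts. They share their other internal exons and differ in a short coding exon between the exon that ends at 170149271 and the exon that starts at 170143463, read along the minus strand. ENSMUST00000111351.9 holds it as exon 9 with 51 bases, at chr1:170147996-170148046. ENSMUST00000027981.7 holds it with 48 bases, at chr1:170147996-170148043, and lacks the first 3 bases of the longer form. ENSMUST00000111350.9 skips it. Both lengths are multiples of 3, so the reading frame continues in all 3 transcripts, whose coding sequences without the stop codon are 1566, 1563 and 1515 bases long. The 3 sequences below are shown because they are the difference that FPKM of whole genes cannot resolve. The capitals mark the alternative exon, and the 12 bases on each side in lower case belong to the neighbouring exons.
ENSMUST00000111351.9: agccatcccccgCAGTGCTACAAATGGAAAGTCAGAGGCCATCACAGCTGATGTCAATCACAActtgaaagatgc
ENSMUST00000027981.7: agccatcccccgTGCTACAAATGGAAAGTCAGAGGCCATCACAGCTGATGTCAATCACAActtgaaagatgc
ENSMUST00000111350.9: agccatcccccgcttgaaagatgc

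**Figure D1:**
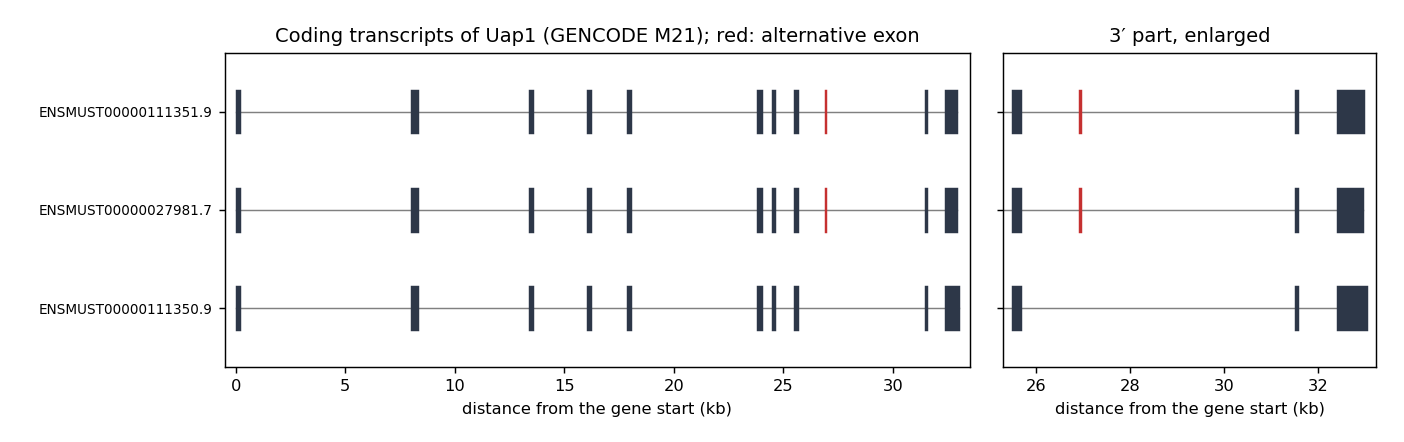
Exons of the 3 protein-coding transcripts of *Uap1* in GENCODE M21, drawn to scale by distance from the gene start in kb, with the 3′ part enlarged on the right. Dark boxes are exons and red boxes the alternative exon, which has 51 bases in the upper transcript, 48 in the middle one and is absent from the lower one.

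The letters TGCATG, the DNA form of the Rbfox element, do not occur on the sense strand of the alternative exon or of the longest protein-coding transcript of *Uap1*. Among the longest protein-coding transcripts of the 10 genes, 5 hold at least 1 copy, namely *Pgm3*, *Ugdh* and *Has3* with 1 each and *Has2* and *Hyal2* with 2 each. Of 9771 such transcripts of the genes tested, 55.7% hold at least 1 copy. The density was 0.202 copies per kb in the 10 transcripts and 0.281 per kb in the 9771. Introns, where Rbfox proteins mainly bind, were not analysed here.

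The deletion was visible in the tissue as a whole. *Rbfox2* FPKM was 58.4, 65.0 and 61.3 in control replicates 1, 2 and 3 and 38.1, 36.3 and 34.3 in mutant replicates 1, 2 and 3, a mean of 58.8% of the control mean (exact two-sided permutation test, p = 0.10, the smallest p that 3 samples against 3 allow). In limma its log2 fold change was -0.75 (unadjusted p = 2.7e-05), and with an adjusted p of 0.138 the deleted gene did not pass the adjusted threshold either. Control replicate 1 and mutant replicate 1 lay away from the other 4 samples on the first principal component of the 10061 genes tested, which carried 54.7% of the variance, so differences are also given by replicate number. All 8 markers of cranial mesenchyme passed the expression filter, 7 of them with a log2 fold change below 0, and their summed FPKM was 410 to 472 in controls and 374 to 458 in mutants. The 6 neuronal markers summed to 551 to 643 in controls and 680 to 775 in mutants, with no overlap; all 6 were higher in the mutants and 3 had an unadjusted p under 0.05 (limma). The summed levels of the lists for forebrain progenitors, epithelium, endothelium, erythroid cells, skeletal muscle, cartilage and macrophages overlapped between the groups. In these lists 5 of 6 tested epithelial and 4 of 4 tested muscle markers were below 0. Above 0 were 4 of 5 tested forebrain progenitor and 3 of 3 tested erythroid markers, and the remaining lists had tested markers on both sides. None of these lists' markers had an unadjusted p under 0.05 (limma). Y-linked genes had a mean FPKM of 14.4 and 13.9 in mutant replicates 1 and 2 and between 0.0247 and 0.0541 in the other 4 samples. As no control had high Y-linked values, embryo sex is partly confounded with genotype. A Y-linked covariate was fitted as an alternative, but it cannot fully separate sex from genotype in these samples. The part of cell composition in the values below was not tested, and in bulk tissue fewer cells of a type and less RNA per cell cannot be told apart.

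No gene of the hexosamine and hyaluronan pathway passed the test between mutants and controls at the level of whole genes. Of the 10 genes, 8 had an FPKM over 5 in all control and all mutant samples and entered the test, while *Has1* and *Has3* did not. In limma, 0 of the 8 passed an adjusted p of 0.05 and 0 an unadjusted p of 0.05, where 0.00% and 1.66% of the 10061 genes tested did. Their log2 fold changes ran from -0.17 to 0.069, 5 below 0 and 3 above it, with a median of -0.035 against 0.0057 for all genes tested. The median size of the change, without its sign, was 0.057 in the 8 genes and 0.054 in all genes tested. In none of the 8 were the mutant values all on one side of the control values. Of the genes tested, 2.37% had all mutants below all controls and 2.63% all mutants above. At these shares and the 1.66% above, counts of 0 among 8 genes do not set them apart from all genes tested. Fold changes are differences of log2(FPKM + 1), and the intervals below are 95% intervals from limma.

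**Figure D2:**
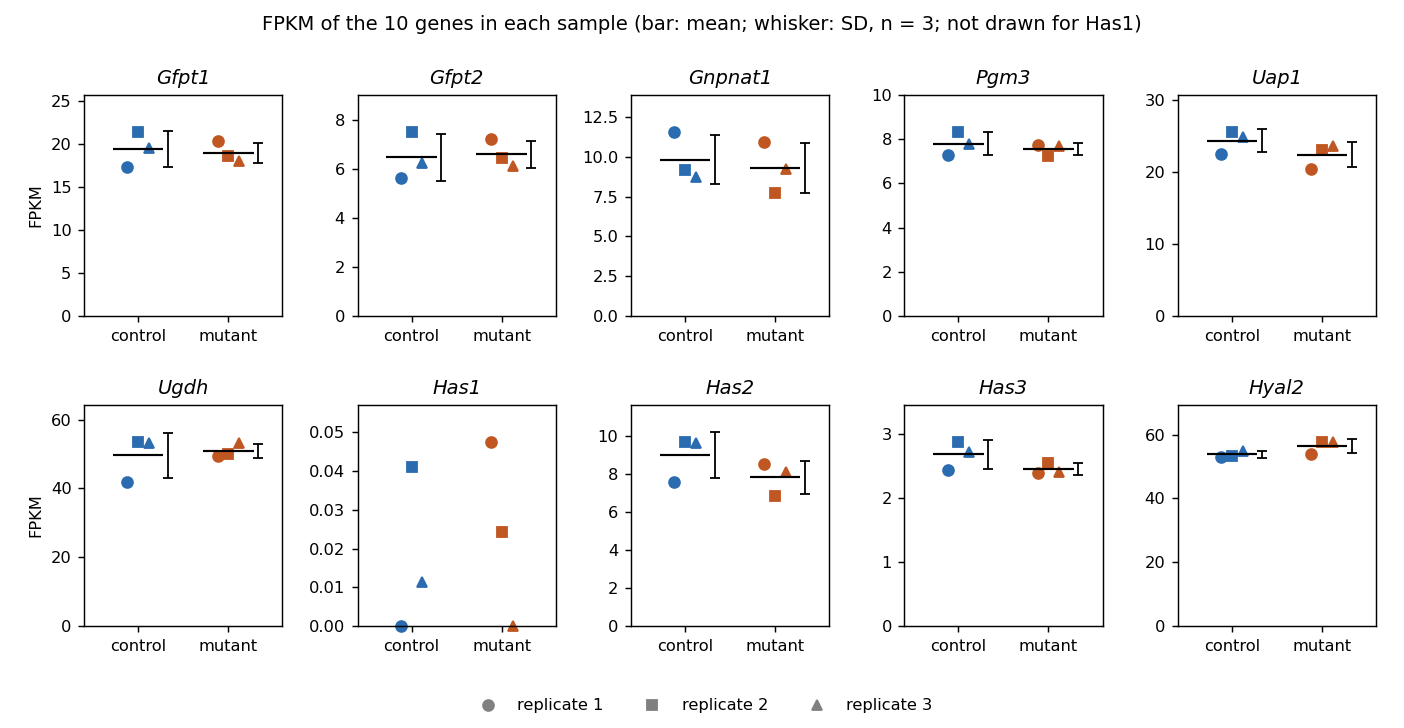
FPKM of each of the 10 genes in the 3 control (blue) and 3 mutant (orange) samples, each gene on its own linear axis from 0. Symbols give the replicate number, bars the mean and whiskers the SD (n = 3), with bars and whiskers not drawn for *Has1*. In every panel the mutant and control values overlap, and *Has1* stays below 0.05.

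The 5 hexosamine enzymes were all expressed. *Gfpt1* (ENSMUSG00000029992, chr6:87042846-87092197, plus strand) and *Gfpt2* (ENSMUSG00000020363, chr11:49794178-49838613, plus strand) encode glutamine-fructose-6-phosphate amidotransferases, which catalyse the first and rate-limiting step. *Gfpt1* FPKM was 17.3, 21.5 and 19.5 in control replicates 1, 2 and 3 and 20.3, 18.6 and 18.0 in mutant replicates 1, 2 and 3. The mutant values lay within the range of the controls. Its log2 fold change was -0.028 with a standard error of 0.099 and an interval from -0.26 to 0.20.

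*Gfpt2* was at 5.66, 7.53 and 6.26 FPKM in controls and 7.22, 6.47 and 6.14 in mutants, again within the control range. Its log2 fold change was 0.030 (standard error 0.12), with an interval from -0.24 to 0.30. *Gfpt1* made up 75.0% ± 0.883 of the summed FPKM of the 2 amidotransferase genes in controls and 74.2% ± 0.397 in mutants (n = 3 each, SD), so the balance of their RNA levels was close to constant in all 6 samples. The coding sequences are identical at 72.2% of aligned bases and the longest stretch that the transcripts share exactly is 23 bases.

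*Gnpnat1* (ENSMUSG00000037722, chr14:45376334-45404913, minus strand) encodes the acetyltransferase of the second step. Its FPKM was 11.6, 9.18 and 8.71 in controls and 10.9, 7.76 and 9.24 in mutants. Both first replicates were above the other 4 samples, with a mean of 11.3 against 8.72, and the mutants and controls overlapped. The log2 fold change was -0.073, and its standard error of 0.15 was larger than that of 78.8% of the genes tested. *Gnpnat1* overlaps *Styx* on the other strand, and whether strand was used in counting is not given in the sources used here.

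*Pgm3* (ENSMUSG00000056131, chr9:86554377-86571842, minus strand, overlapping *Dop1a* on the plus strand) encodes the phosphoglucomutase that moves the phosphate of N-acetylglucosamine. It was at 7.30, 8.34 and 7.76 FPKM in controls and 7.72, 7.22 and 7.69 in mutants. The highest of the 6 values was 1.15 times the lowest, and the log2 fold change was -0.041 with an interval from -0.23 to 0.15.

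*Uap1*, the gene with the alternative exon shown above, measured 22.5, 25.6 and 24.8 FPKM in control replicates 1, 2 and 3 and 20.4, 23.04 and 23.6 in mutant replicates 1, 2 and 3. Each mutant was below the control of the same number, by -0.14, -0.14 and -0.069 on the log2 scale, but mutant replicates 2 and 3 were above control replicate 1. Mutants differed from controls by -0.12 on this scale, with an interval from -0.33 to 0.095, which corresponds to 79.7% to 107% of the control on the FPKM + 1 scale. With the replicate number as a block the interval was -0.25 to 0.020 (unadjusted p = 0.081, adjusted p = 0.839, limma). Over its alternatives the adjusted p ran from 0.568 to 1.0. The value adds the transcripts with and without the alternative exon, so it carries no measure of the balance between them.

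*Ugdh* (ENSMUSG00000029201, chr5:65413221-65435949, minus strand, overlapping *Gm43552* on the same strand) encodes the dehydrogenase that turns UDP-glucose into UDP-glucuronate, the second sugar of hyaluronan and a precursor of chondroitin and heparan sulphate. Its FPKM was 42.0, 53.6 and 53.2 in controls and 49.5, 49.9 and 53.3 in mutants. Control replicate 1 was the lowest of the 6, and the mutants lay between the controls. Mutants and controls differed by 0.045 on the log2 scale, with an interval from -0.21 to 0.30, and the value turned to -0.069 without control replicate 1.

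*Has2* had the highest RNA level of the 3 hyaluronan synthase genes in this tissue. The Has enzymes join both sugars into the chain and push it out of the cell, and *Has2* is the synthase that embryonic development requires. *Has2* (ENSMUSG00000022367) lies at chr15:56665627-56694539 on the minus strand and overlaps its antisense transcript *Has2os*. It accounted for 76.8% ± 1.10 of the summed FPKM of the 3 synthases in controls and 75.9% ± 2.73 in mutants (n = 3 each, SD). *Has3* made up 23.03% ± 1.16 and 23.9% ± 2.74, and *Has1* no more than 0.435% in any sample.

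*Has2* FPKM was 7.60, 9.71 and 9.65 in control replicates 1, 2 and 3 and 8.51, 6.87 and 8.11 in mutant replicates 1, 2 and 3. Control replicates 2 and 3 were the 2 highest samples, while control replicate 1 lay below 2 of the mutants. At -0.17 with a standard error of 0.12, its log2 fold change was the largest in size among the 8 genes tested, with an interval from -0.46 to 0.11 (adjusted p = 1.0 from limma). This corresponds to 72.6% to 108% of the control on the FPKM + 1 scale. The exact two-sided permutation p was 0.30.

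The difference in *Has2* moved with the samples that entered. It was 0.14 between the first replicates, -0.44 between the second and -0.22 between the third. In replicates 2 and 3 only, the log2 fold change was -0.33 with a standard error of 0.10 (unadjusted p = 0.014, adjusted p = 0.409, limma), in a fit where 11.0% of all genes had an unadjusted p under 0.05. Without control replicate 1 it was -0.28 (unadjusted p = 0.037, adjusted p = 0.709), where 6.75% of all genes did, and without mutant replicate 2 it was -0.094. Among the 8 tested members *Has2* was thus 1 of 8 in both fits, and no other member had an unadjusted p under 0.05 in any of the alternatives. Mutant replicate 2, the lowest for *Has2*, also had the lowest summed level of the cranial mesenchyme markers, 374 against 410 to 472 in the other 5 samples, and the part of this in the value was not tested.

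*Has3* (ENSMUSG00000031910, chr8:106870242-106884566, plus strand, overlapping *Chtf8* on the minus strand) was at 2.44, 2.88 and 2.72 FPKM in controls and 2.39, 2.55 and 2.40 in mutants. Each mutant was below the control of the same number, yet mutant replicate 2 exceeded control replicate 1. Fitted without the filter, the log2 fold change was -0.092 with an interval from -0.27 to 0.083 (exact two-sided permutation p = 0.20). *Has1* (ENSMUSG00000003665, chr17:17843323-17855205, minus strand) was listed at 0 in control replicate 1 and mutant replicate 3. It was at 0.0411 and 0.0114 in control replicates 2 and 3 and at 0.0476 and 0.0242 in mutant replicates 1 and 2. These levels are close to the limit of detection, and no fold change is given. The 3 synthases share 62.0% to 68.8% of aligned coding bases, and no 2 of their transcripts share an exact stretch longer than 23 bases.

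*Hyal2* (ENSMUSG00000010047, chr9:107567945-107572779, plus strand, overlapping the antisense gene *Gm9917*) encodes a membrane-anchored hyaluronidase that cuts long hyaluronan chains. Its FPKM was 53.1, 53.4 and 54.9 in controls and 54.0, 57.7 and 57.8 in mutants. Mutant replicates 2 and 3 were the 2 highest samples and mutant replicate 1 lay among the controls. Mutants were apart from controls by 0.069 on the log2 scale, with an interval from -0.096 to 0.24. The difference was above 0 in all 3 replicate numbers, at 0.024, 0.11 and 0.073. Only 2.89% of the genes tested had a smaller standard error than its 0.070.

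**Figure D3:**
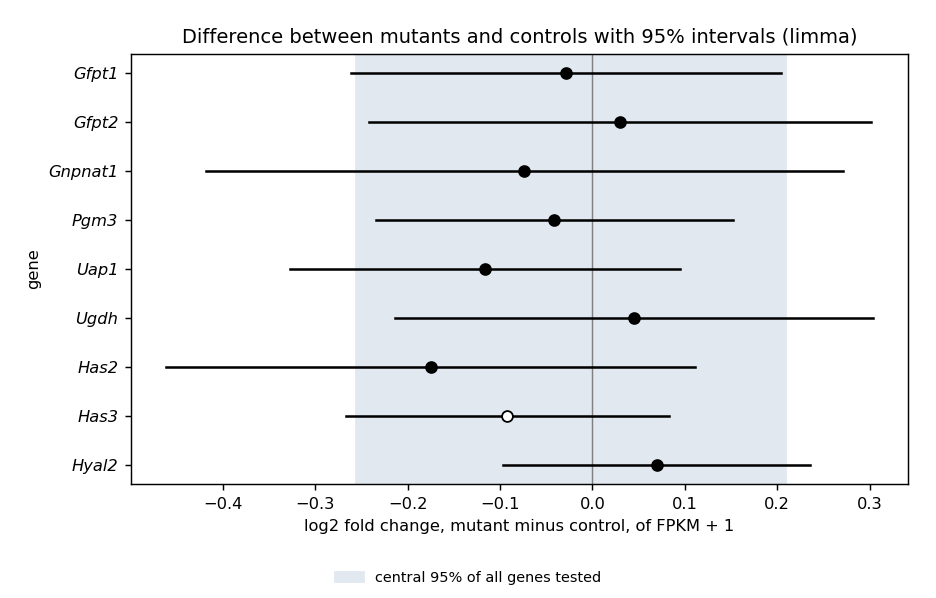
Log2 fold change of mutants against controls (points) with 95% intervals from limma (lines) for 9 of the 10 genes, on the log2(FPKM + 1) scale; the open point is *Has3*, fitted without the filter, and *Has1* is left out. All 9 intervals include 0, and the shaded band is the central 95% of all genes tested, from -0.26 to 0.21.

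By group mean, the order of the levels was the same in controls and mutants. Over all 6 samples *Hyal2* was highest with a mean of 55.1 FPKM, followed by *Ugdh* at 50.3, *Uap1* at 23.3, *Gfpt1* at 19.2, *Gnpnat1* at 9.57, *Has2* at 8.41, *Pgm3* at 7.67, *Gfpt2* at 6.55, *Has3* at 2.57 and *Has1*. *Gnpnat1*, *Has2*, *Pgm3* and *Gfpt2* formed a group in which the ranges of neighbours overlapped in controls and in mutants. *Hyal2* and *Ugdh* overlapped in controls, where the highest *Ugdh* value was 53.6 and the lowest *Hyal2* value 53.1, and were apart in mutants, at 53.3 and 54.0. The other neighbours in the order were apart in both groups. *Ugdh* was thus 2.16 times as high as *Uap1* by mean FPKM, and *Uap1* 1.21 times as high as *Gfpt1*.

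In some of the genes the first replicates differed from the others by more than the mutants from the controls. The 2 first replicates were both outside the range of the other 4 samples in 3 of the 8 genes, above it for *Gnpnat1* and below it for *Uap1* and *Ugdh*, and in 53.1% of the genes tested. On the log2 scale the first replicates differed from the others by 0.34 for *Gnpnat1*, -0.17 for *Uap1* and -0.20 for *Ugdh*. Each was larger in size than the difference of the same gene between mutants and controls. These 3 genes were picked because their first replicates lay outside, so a large difference there follows from the choice. The first replicates were themselves set apart after the samples had been seen. The mutant differed from the control in the same direction in all 3 replicate numbers for *Uap1* (lower) and *Hyal2* (higher), or 2 of 8, against 26.8% of all genes tested. *Gfpt1*, *Gfpt2*, *Pgm3* and *Has2* lay higher in mutant replicate 1 than in control replicate 1, by 0.22, 0.31, 0.071 and 0.14, and lower in the mutants of replicates 2 and 3.

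**Figure D4:**
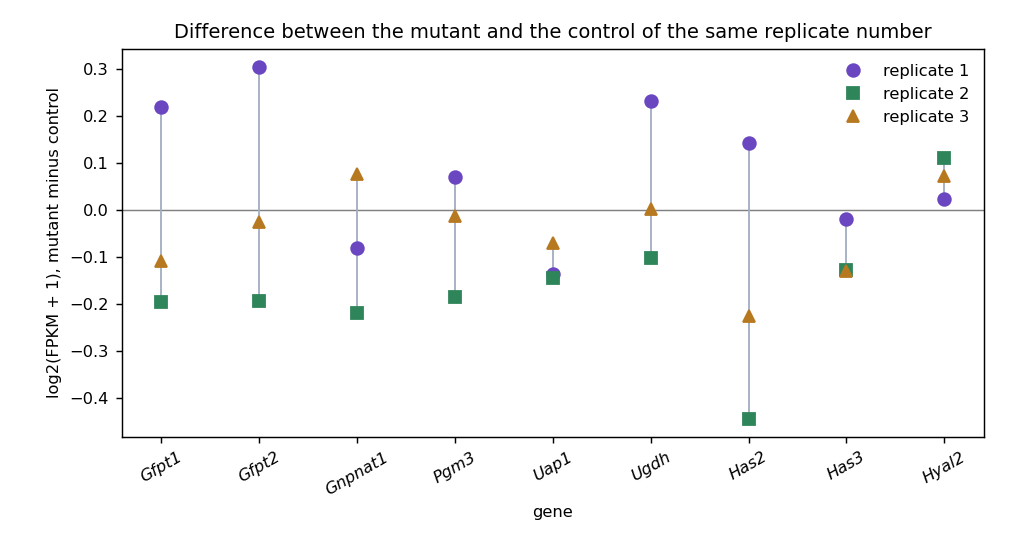
Difference in log2(FPKM + 1) between the mutant and the control of the same replicate number, for 9 of the 10 genes (*Has1* left out), with a symbol for each number. *Uap1* and *Has3* are below 0 and *Hyal2* is above 0 in all 3 numbers, while *Has2* runs from 0.14 in the first to -0.44 in the second.

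Related genes of the pathway were read from 5 lists with 59 genes in the table, of which 37 passed the filter. In limma, 0 of the 37 passed an adjusted and 0 an unadjusted p of 0.05, and their median log2 fold change was -0.018. With the replicate number as a block, *Cmas* and *Mgea5*, 2 of the 37, were higher in mutants at an unadjusted p under 0.05 and none passed after adjustment. In that fit 2.31% of all genes tested were higher and 3.70% lower at an unadjusted p under 0.05.

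Among 12 tested neighbours in amino sugar and nucleotide sugar metabolism, 5 log2 fold changes were below 0 and 7 above. *Gpi1*, the isomerase that supplies fructose-6-phosphate, was the most abundant, with a mean of 150.4 ± 10.5 FPKM (SD, n = 3) in controls against 142 ± 12.2 (SD, n = 3) in mutants. *Cmas*, which activates sialic acid, was at 39.2, 39.8 and 41.3 in controls and 42.2, 48.1 and 45.5 in mutants. The groups did not overlap (exact two-sided permutation test, p = 0.10, the smallest possible), and 2.63% of the genes tested had all mutants above all controls. Its log2 fold change was 0.17 with an interval from -0.013 to 0.35 (adjusted p = 1.0 from limma, and 0.809 with the block).

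UDP-N-acetylglucosamine is also used to modify proteins. *Mgea5*, now called *Oga*, encodes the enzyme that removes O-GlcNAc. It was at 52.4, 50.7 and 52.6 FPKM in controls and 58.3, 55.6 and 58.1 in mutants, and the groups did not overlap. With *Cmas*, this made 2 of the 37 tested related genes without overlap, against 503 of the 10061 genes tested. The log2 fold change of *Mgea5* was 0.14 with an interval from -0.021 to 0.30 (adjusted p = 1.0 from limma, and 0.809 with the block). It was 0.15, 0.13 and 0.14 in the 3 replicate numbers, and 26.8% of all genes tested had the same direction in all 3. *Ogt*, which adds O-GlcNAc, was at 70.5, 49.0 and 36.1 in controls and 59.5, 34.2 and 37.9 in mutants, a wide spread in both groups. In this list of 5 tested genes 4 log2 fold changes were below 0 and 1 above.

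Among 9 tested genes that use glucuronate for other glycosaminoglycans, 6 were below 0 and 3 above, none by more than 0.11 in size. The heparan sulphate polymerases *Ext1* and *Ext2* had means of 36.9 ± 4.78 and 38.2 ± 4.12 FPKM in controls, against 35.9 ± 1.78 and 37.1 ± 2.29 in mutants (n = 3 each, SD). In the list for hyaluronan breakdown and clearance, 5 of 10 genes were tested, 4 of them below 0 and 1 above. *Tmem2*, a cell-surface hyaluronidase, was at 29.6, 29.0 and 29.6 FPKM in controls and 29.0, 31.3 and 35.1 in mutants, and *Hexa*, a lysosomal hexosaminidase, at 31.5 ± 0.834 and 31.0 ± 1.91 (SD, n = 3 each). *Hyal1* and *Hyal3* did not pass the filter.

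Of 17 hyaluronan receptors and binding proteins, 6 were tested, with log2 fold changes from -0.14 to 0.25, 2 below 0 and 4 above. *Vcan*, the large proteoglycan that hyaluronan gathers in mesenchyme, was at 30.5, 79.3 and 58.8 FPKM in controls and 42.1, 47.0 and 53.4 in mutants. The controls spanned more than the mutants, and the differences by replicate number were 0.45, -0.74 and -0.14. *Ptx3*, which helps to crosslink hyaluronan, was at 25.8 ± 1.34 and 27.0 ± 2.75 (SD, n = 3 each). The highest log2 fold change of the list, 0.25, was that of *Ncan*, a proteoglycan of neural tissue named here after its values were seen. Its FPKM was 17.4, 11.1 and 15.2 in controls and 16.6, 19.5 and 15.8 in mutants, which overlapped, beside the higher summed level of the neuronal markers in mutants, and the part of these in its value was not tested. The receptor *Cd44*, also named after its values were seen, did not pass the filter and was at 3.32, 6.24 and 4.58 in controls and 3.60, 3.27 and 2.53 in mutants. Fitted without the filter, its log2 fold change was -0.44 with an interval from -1.04 to 0.15.

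**Figure D5:**
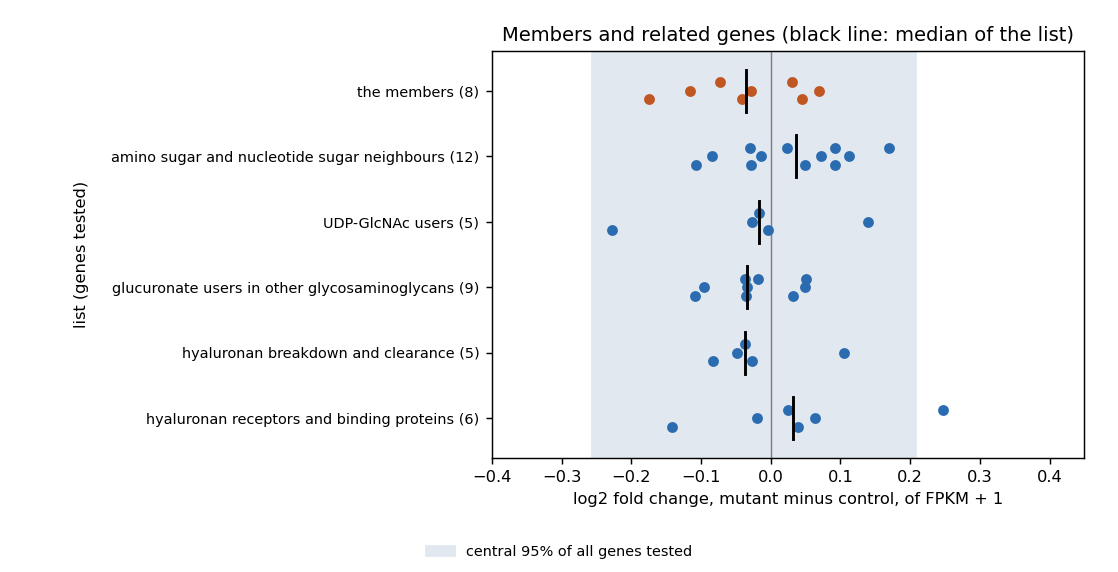
Log2 fold change of mutants against controls for the 8 tested members (orange) and the 37 tested related genes in 5 lists (blue), with the number tested in brackets and the median of each list as a black line. The shaded band is the central 95% of all genes tested, and 1 gene, *Ncan*, lies outside it.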

How the data were processed

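The authors sequenced stranded poly(A)+ libraries as paired ends and aligned the reads to GRCm38 with STAR. FastQC 0.11.4 and Cuffdiff are named in the submitters' processing notes. The annotation, the version of STAR and the step that made the gene table are not given in the sources used here. FPKM was deposited for every gene and sample, once per sample in 6 tables and once in a joint table, with 0 differences between them. FPKM hides the number of reads behind a value. Among genes under 0.05 FPKM in both samples of a pair, 16.9% to 31.2% stood at 1 ratio (log2 bins of 0.01) in pairs without a first replicate, and 1.15% to 7.29% in pairs with one, so depth could not be derived for all samples and no count test or counting interval is given.

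The study's filter for transcripts was applied to genes, so that a gene was kept (10061 genes) if its FPKM exceeded 5 in each control or in each mutant. Values of log2(FPKM + 1) entered limma 3.58.1 (R 4.3.3, trend on mean intensity) with all 6 samples and no covariate, and p-values were adjusted by Benjamini-Hochberg over all genes tested. *Has1* and *Has3* were fitted without the filter. The study's methods call the samples of a group independent biological replicates. Same-numbered control and mutant samples deviated together from their group means (Pearson's r across genes of 0.64, 0.26 and 0.51 for numbers 1, 2 and 3; genes are not independent replicates). Control 3 with mutant 2 (0.40) and control 2 with mutant 3 (0.23) also correlated, so the first replicates were set apart from the others while numbers 2 and 3 were not told apart from each other. Each same-number r was over 0.1, but so was that of these mismatched pairs. The correlations therefore do not show that numbers 2 and 3 pair the samples. A replicate block by number was fitted as an alternative. Other alternatives were a pseudocount of 0.1, median ratio scaling, quantile normalization, an FPKM filter of 1, no filter, no trend, the mean of 4 Y-linked genes as a covariate, a term for the first replicates, replicates 2 and 3 only, and each sample left out in turn.

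Named genes are the 10 members, *Rbfox2* and, in each related list, those with an unadjusted p under 0.05 or else the 2 with the highest mean FPKM. *Ncan*, *Cd44*, *Hyal1* and *Hyal3* were named in addition, after their values were seen. The members and lists were chosen with earlier results of these data known. Positions and transcript sequences are from GENCODE M21 (GRCm38), which held 95.0% of the gene identifiers and all 10 members. Coding sequences were aligned globally with Biopython 1.88.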

Additional observations from a re-analysis of the deposited data

How the results depend on the processing

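No member had an adjusted p under 0.05 in any of the alternatives run, and the replicate block changed no call among the members or related genes after adjustment. Leaving out *Has1*, for which no fold change is given, members had the main direction in 131 alternative values and the opposite one in 11. The replicate block, the term for the first replicates, the fit without trend and the other filters left each log2 fold change unchanged. They alter only its standard error and p, so their values, counted in the 131, could not turn. *Uap1*, *Has2*, *Has3* and *Hyal2* had the main direction in each alternative. Their log2 fold changes ran from -0.17 to -0.036, -0.33 to -0.094, -0.14 to -0.053 and 0.053 to 0.10. The -0.036 of *Uap1* was its value with the Y-linked covariate (standard error 0.13), against -0.12 in the main fit. The direction turned with the Y-linked covariate for *Gfpt2* (-0.063), and in replicates 2 and 3 only for *Gfpt2* (-0.11) and *Ugdh* (-0.049). With 1 sample left out it ran from -0.10 to 0.043 for *Gfpt1*, -0.051 to 0.13 for *Gfpt2*, -0.18 to 0.040 for *Gnpnat1*, -0.083 to 0.0025 for *Pgm3* and -0.069 to 0.10 for *Ugdh*.

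The 0 members with an unadjusted p under 0.05 became 1 (*Has2*) in replicates 2 and 3 only, and 0 to 1 with 1 sample left out, the 1 being *Has2* without control replicate 1. The 0 related genes became 1 with median ratio scaling, 1 with quantile normalization, 2 with the replicate block, 2 with the term for the first replicates, 3 with no filter, 3 in replicates 2 and 3 only, and 0 to 2 with 1 sample left out. Over all genes, the 167 with an unadjusted p under 0.05 became 604 with the replicate block, 611 with the term for the first replicates, 304 with the FPKM filter of 1, 809 with no filter, 1130 in replicates 2 and 3 only, and 78 to 690 with 1 sample left out. The 0 with an adjusted p under 0.05 became 3 with the term for the first replicates, 4 with no filter, 4 in replicates 2 and 3 only, and 0 to 5 with 1 sample left out. Genes whose groups did not overlap rose from 503 to 4525 in replicates 2 and 3 only and to 846 to 2454 with 1 sample left out, where fewer samples have to be apart. The cause of the other changes was not tested. Reads behind single values are unknown, which limits *Has1* most, and FPKM of whole genes cannot show a change in the share of the *Uap1* transcripts.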

Other observations

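Ratios of FPKM + 1 between 2 members within a sample were computed after the values had been seen. Of the 28 pairs of the 8 tested members, 3 had ratios of FPKM + 1 that did not overlap between the groups, or 10.7%. Of the 50606830 pairs of all genes tested, 5.55% did not overlap, and pairs that share a gene are not independent. For a single ratio, 3 samples apart from 3 give an exact two-sided permutation p of 0.10. A share of 10.7% therefore does not set these pairs apart. *Ugdh*, which makes UDP-glucuronate, stood to *Has2*, which uses it, at 4.997, 5.10 and 5.09 in controls and 5.31, 6.47 and 5.96 in mutants. *Uap1* stood to *Ugdh*, the enzymes of the 2 sugar precursors, at 0.546, 0.486 and 0.476 in controls and 0.423, 0.472 and 0.453 in mutants. *Uap1* stood to *Hyal2* at 0.434, 0.488 and 0.462 in controls and 0.389, 0.409 and 0.418 in mutants. In each of the 3 ratios the mutants and controls were apart, while none of the 8 genes taken singly had groups that were apart. No test was run on them.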
